A study of Mus musculus with 10 samples.

Results

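The matrix metalloproteinases (MMPs), the ADAMTS proteases, the ADAMTS-like proteins and the tissue inhibitors of metalloproteinases (TIMPs) were followed in 10 mouse aortas measured on Affymetrix Mouse Gene 2.0 ST arrays. Members were all genes whose single array symbol was Mmp, Adamts, Adamtsl or Timp with its number, which gave 49 of the 22180 genes measured: 22 Mmp, 18 Adamts, 5 Adamtsl and 4 Timp genes. Mmp15 and Adamts2 were not analysed here. One group of 5 male mice, labelled C57BL/6, lacked apolipoprotein E (ApoE knockout), a plasma protein that clears lipoprotein remnants. The other group of 5 male mice, with the strain background labelled C57B/L6, was deficient in ApoE and also in the cytokine IL-17 (ApoE/IL-17 double knockout) and came from a cross of the single knockouts. High fat feeding began in both groups at 8 weeks of age and lasted 3 weeks, so that the mice were 11 weeks old when aortas were collected. Every mouse thus lacked ApoE, and the comparison asks how the hyperlipidemic aorta differs when IL-17 is absent as well.

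MMPs are zinc-dependent endopeptidases that cut collagens, gelatins, elastin and other matrix proteins. Most are secreted as inactive precursors and some are anchored in the plasma membrane. ADAMTS proteases are secreted relatives with thrombospondin repeats that cleave proteoglycans such as aggrecan and versican, trim procollagens or process von Willebrand factor. ADAMTS-like proteins share the repeats but lack the protease domain, and several bind fibrillin microfibrils. TIMPs block the active site of these enzymes. In arteries the balance of proteases and inhibitors is known for its part in smooth muscle migration, plaque growth and aneurysm, and IL-17 is known to induce several MMP genes in cultured cells.

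The start regions of the members fell into types that the choice of genes did not use, and the sequences show them. Of the 49 members, 34 had an entry in the RefSeq promoter table (GRCm38.p6), with 37 windows, of which the 250 bases before the start were searched on both strands. In the reference gene order, 10 Mmp genes (Mmp13, Mmp12, Mmp1b, Mmp3, Mmp1a, Mmp10, Mmp8, Mmp27, Mmp20 and Mmp7) lie next to one another on chromosome 9. The AP-1 motif TGANTCA was found upstream of 8 of these 10 genes and of 0 of the other 24 members with an entry, where 6.75% of all 32851 windows hold it. The TATA motif TATAAA stood upstream of 7 of the 10 and 3 of the 24 (12.4% of all windows), and 7 of the 10 held both motifs (1.21% of all windows). The GC box GGGCGG was found upstream of 0 of the 10 and 18 of the 24 (32.7% of all windows). A kappaB consensus match stood upstream of 1 of the 34, Mmp25 (3.9% of all windows). A match is a run of letters and was not tested as a binding site. The 150 bases before the start are printed 5′ to 3′ with motif matches in capitals, first for 4 genes of the chromosome 9 run: Mmp13 at chr9:7272364-7272513, Mmp3 at chr9:7445672-7445821, Mmp10 at chr9:7502192-7502341 and Mmp7 at chr9:7691940-7692089.

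Mmp13: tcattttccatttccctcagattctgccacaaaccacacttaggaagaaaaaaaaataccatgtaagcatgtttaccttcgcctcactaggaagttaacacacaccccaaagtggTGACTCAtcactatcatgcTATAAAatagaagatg
Mmp3: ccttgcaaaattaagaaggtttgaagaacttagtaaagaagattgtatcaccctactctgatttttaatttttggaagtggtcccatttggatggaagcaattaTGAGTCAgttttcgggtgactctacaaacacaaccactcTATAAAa
Mmp10: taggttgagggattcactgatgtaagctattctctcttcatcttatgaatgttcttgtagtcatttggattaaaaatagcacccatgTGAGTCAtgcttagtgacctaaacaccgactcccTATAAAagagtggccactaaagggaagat
Mmp7: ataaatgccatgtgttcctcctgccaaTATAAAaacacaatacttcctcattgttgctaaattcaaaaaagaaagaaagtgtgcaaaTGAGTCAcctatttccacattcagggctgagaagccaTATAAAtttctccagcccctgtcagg

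In Mmp13 the AP-1 motif began 35 bases before the annotated start and the TATA motif 16 bases before it. In Mmp3 these distances were 46 and 7 bases, and in Mmp10 63 and 29 bases. Mmp7 carried the AP-1 motif 63 bases before the start and TATA motifs 26 and 123 bases before it. The same stretch follows for 4 members elsewhere in the genome that were higher in the double knockout and hold GC boxes: Mmp14 at chr14:54431448-54431597, Timp3 at chr10:86300262-86300411, Adamtsl3 at chr7:82335544-82335693 and, on the minus strand, Adamts9 at chr6:92943535-92943684. GC boxes also stood upstream of members that were not called, among them Adamts1, Adamtsl4, Timp1 and Timp2. A relation of the motifs to the changes was not tested. A GC box on the opposite strand reads CCGCCC.

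Mmp14: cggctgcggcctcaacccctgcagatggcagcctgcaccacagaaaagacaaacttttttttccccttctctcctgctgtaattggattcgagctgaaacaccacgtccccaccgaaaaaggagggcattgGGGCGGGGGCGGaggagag
Timp3: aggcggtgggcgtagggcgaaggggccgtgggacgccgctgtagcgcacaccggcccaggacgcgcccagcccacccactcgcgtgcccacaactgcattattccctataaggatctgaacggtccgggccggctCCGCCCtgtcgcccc
Adamtsl3: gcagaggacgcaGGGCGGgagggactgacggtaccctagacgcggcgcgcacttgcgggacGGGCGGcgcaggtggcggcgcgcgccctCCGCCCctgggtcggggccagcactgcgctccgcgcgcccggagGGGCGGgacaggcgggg
Adamts9: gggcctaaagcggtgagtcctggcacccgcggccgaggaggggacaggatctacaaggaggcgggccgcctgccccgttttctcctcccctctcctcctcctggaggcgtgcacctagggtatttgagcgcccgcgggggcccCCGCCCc

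Each array gave a log2 value per probe set, and the 5 arrays per group limit the precision. The level of receptor genes (5.80), the 95th percentile of the mean values of 1432 olfactory, vomeronasal and taste receptor genes, served as a guide to background. Of the 49 members, 39 had a mean over the 10 arrays above that level and 10 at or below it. Smooth muscle markers, among them Acta2, Myh11 and Tagln, were all above it. The median log2 change (double knockout minus ApoE knockout) was 0.26 for the 8653 genes at or below the level and 0.01 for the 13527 genes above it, so dim genes as a whole lay higher in the double knockout. The protocol texts of the groups differ and no scan date is given, so a difference of run and the genotype cannot be told apart. Values of different genes come from different probes, and only changes between groups are set side by side.

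In the double knockout aortas 17 of the 49 members rose, 1 fell (Mmp9) and 31 did not pass an adjusted p of 0.05, a split that turned to 3 higher and 6 lower when each array was centred on the median of all probe sets. Over all genes 22.8% were higher and 7.53% lower, against 34.7% and 2.04% of the members. With that centring 7.52% of all genes were higher and 25.4% lower, and the median change of genes above the receptor gene level moved to -0.19. After quantile normalization 10 members were higher and 1 lower, where 8.94% of all genes were higher and 11.2% lower. Adamts4, Mmp7 and Mmp21 stayed higher and Mmp9 lower under each of these scalings. Mmp7 and Mmp21 had means below the receptor gene level (4.52 and 5.65), and a second Mmp7 probe set did not pass (0.09). For 13 members every double knockout aorta lay above every ApoE knockout aorta (15.6% of all genes), and 0 were separated the other way (4.8% of all genes). The median log2 change was 0.25 over the members and 0.10 over all genes. By family, 5 of 22 Mmp genes were higher (22.7%), near the 22.8% of all genes. Higher were also 8 of 18 Adamts (44.4%), 3 of 5 Adamtsl (60%) and 1 of 4 Timp genes (25%). Above the receptor gene level 2 of 16 Mmp genes were higher (12.5%), where 14.3% of all genes above it were.

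**Figure D1:**
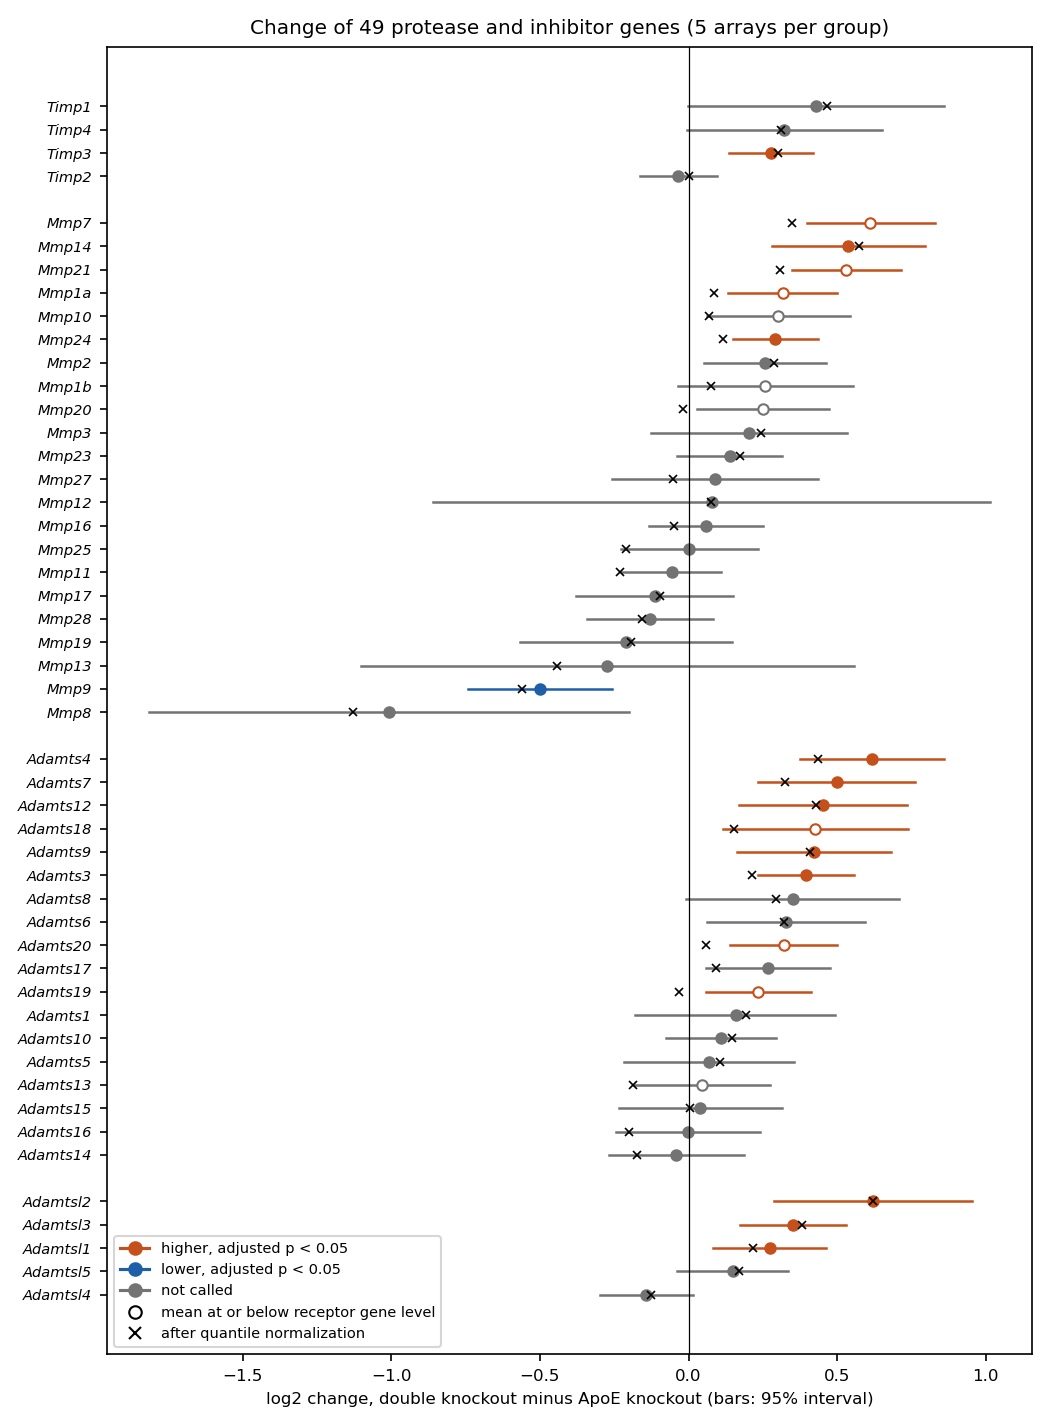
Log2 change of each of the 49 members (x axis, double knockout minus ApoE knockout, 5 arrays per group) with its 95% interval, by family. Orange marks the 17 higher members and blue the 1 lower one, open circles mark members at or below the receptor gene level, and crosses give the change after quantile normalization, which lies to the left of every open circle.

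The share called depended on the level of the genes. At or below the receptor gene level 6 of 10 members were higher and 0 lower, where 35.9% of such genes were higher and 2.29% lower. Above it 11 of 39 were higher (28.2%) and 1 lower (2.56%), where 14.3% of genes were higher and 10.9% lower. After quantile normalization 8 of these 39 were higher, against 9.15% of genes above the level. The 11 were Timp3, Mmp14, Mmp24, Adamts3, Adamts4, Adamts7, Adamts9, Adamts12, Adamtsl1, Adamtsl2 and Adamtsl3. The change of each stayed positive in all alternative fits run, and with arrays centred on the median of all probe sets only Adamts4 among them was still called.

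**Figure D2:**
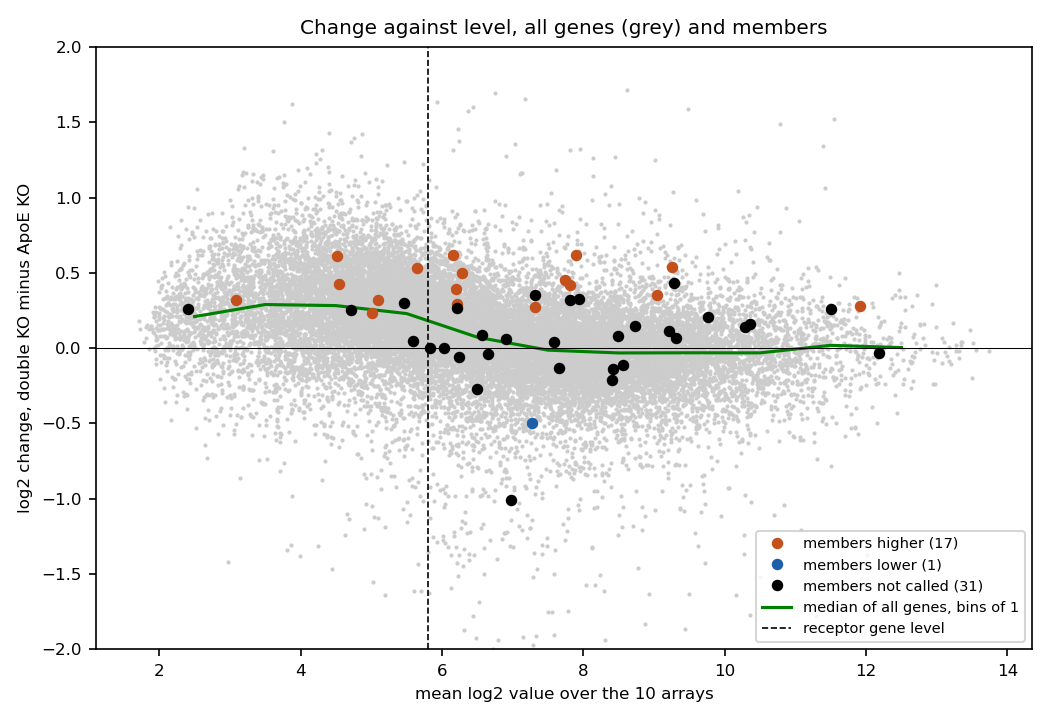
Log2 change (y axis) against the mean log2 value over the 10 arrays (x axis) for all 22180 genes in grey and the 49 members in colour, with the median of all genes per unit of level as a green line and the receptor gene level of 5.80 as a dashed line. The line lies at 0.29 between 3 and 4 and at -0.03 between 8 and 9, and 26 genes that changed by more than 2 lie outside the plotted range.

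Among the membrane-anchored MMPs, which act at the cell surface, Mmp14 rose. Its product MT1-MMP is a collagenase and the main activator of the MMP-2 precursor. Mmp14 had log2 values of 9.01, 9.17, 8.98, 8.82 and 8.95 in ApoE knockout replicates 1 to 5 and 9.53, 9.91, 9.47, 9.49 and 9.22 in double knockout replicates 1 to 5. Every double knockout aorta lay above every ApoE knockout aorta, with replicate 2 of the double knockout highest. The log2 change was 0.54 (1.45-fold, SE 0.12, limma adjusted p = 0.0068). With arrays centred on the median of all probe sets it was 0.33 and missed the threshold (adjusted p = 0.052).

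Mmp24, which encodes MT5-MMP, known from neurons, lay at 5.93 to 6.14 in ApoE knockout and 6.31 to 6.42 in double knockout aortas, close above the receptor gene level. The groups did not overlap, and the change of 0.29 (SE 0.065, adjusted p = 0.0077) was not called after quantile normalization (0.12, adjusted p = 0.22). Of the other 3 genes of this class none passed. Mmp17, which encodes a membrane MMP held by a lipid anchor, changed by -0.11 (95% interval -0.38 to 0.15), Mmp16 by 0.06 and Mmp25 by 0.00.

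Of the gelatinases, which digest denatured collagen and basement membrane, Mmp9 was lower and Mmp2 did not pass. Mmp9, made by neutrophils, macrophages and stimulated smooth muscle cells, was at 7.68, 7.61, 7.21, 7.57 and 7.58 in ApoE knockout replicates 1 to 5 and at 7.17, 7.05, 7.23, 6.93 and 6.77 in the double knockout. The groups met at 1 point, where ApoE knockout replicate 3 (7.211) lay just below double knockout replicate 3 (7.226). Mmp9 fell by 0.50 on the log2 scale (1.42-fold lower, SE 0.11, adjusted p = 0.0071). It was lower in each of the 18 alternative fits, from -0.71 to -0.44. In whole aortas, fewer cells of a type and less RNA per cell cannot be told apart.

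Neutrophil markers were lower beside Mmp9, with 6 of 11 falling (54.5%, against 7.53% of all genes). Their mean levels were 6.39 to 7.68 in the ApoE knockout and 5.89 to 6.20 in the double knockout. The order of single aortas differed between the measures. ApoE knockout replicate 1 had the highest Mmp9 value (7.675) and the lowest neutrophil level of its group (6.386, next to 6.393 in replicate 3). Of the neutrophil list 3 of 11 lay at or below the receptor gene level, among them Ly6g and Elane. Macrophage markers, of which 0 of 12 passed, ran from 9.16 to 9.64 and from 8.88 to 9.73. The part of either cell type in the Mmp9 difference was not tested.

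Mmp2, the gelatinase of smooth muscle cells and fibroblasts, had values of 11.30, 11.38, 11.30, 11.41 and 11.49 in the ApoE knockout and 11.46, 11.94, 11.59, 11.67 and 11.51 in the double knockout. Of the ApoE knockout aortas only replicate 5 reached into the double knockout range. The change of 0.26 (SE 0.093, 95% interval 0.05 to 0.46) missed the threshold (adjusted p = 0.056). It passed after quantile normalization (0.29, adjusted p = 0.042) and was not called with arrays centred on the median of all probe sets.

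**Figure D3:**
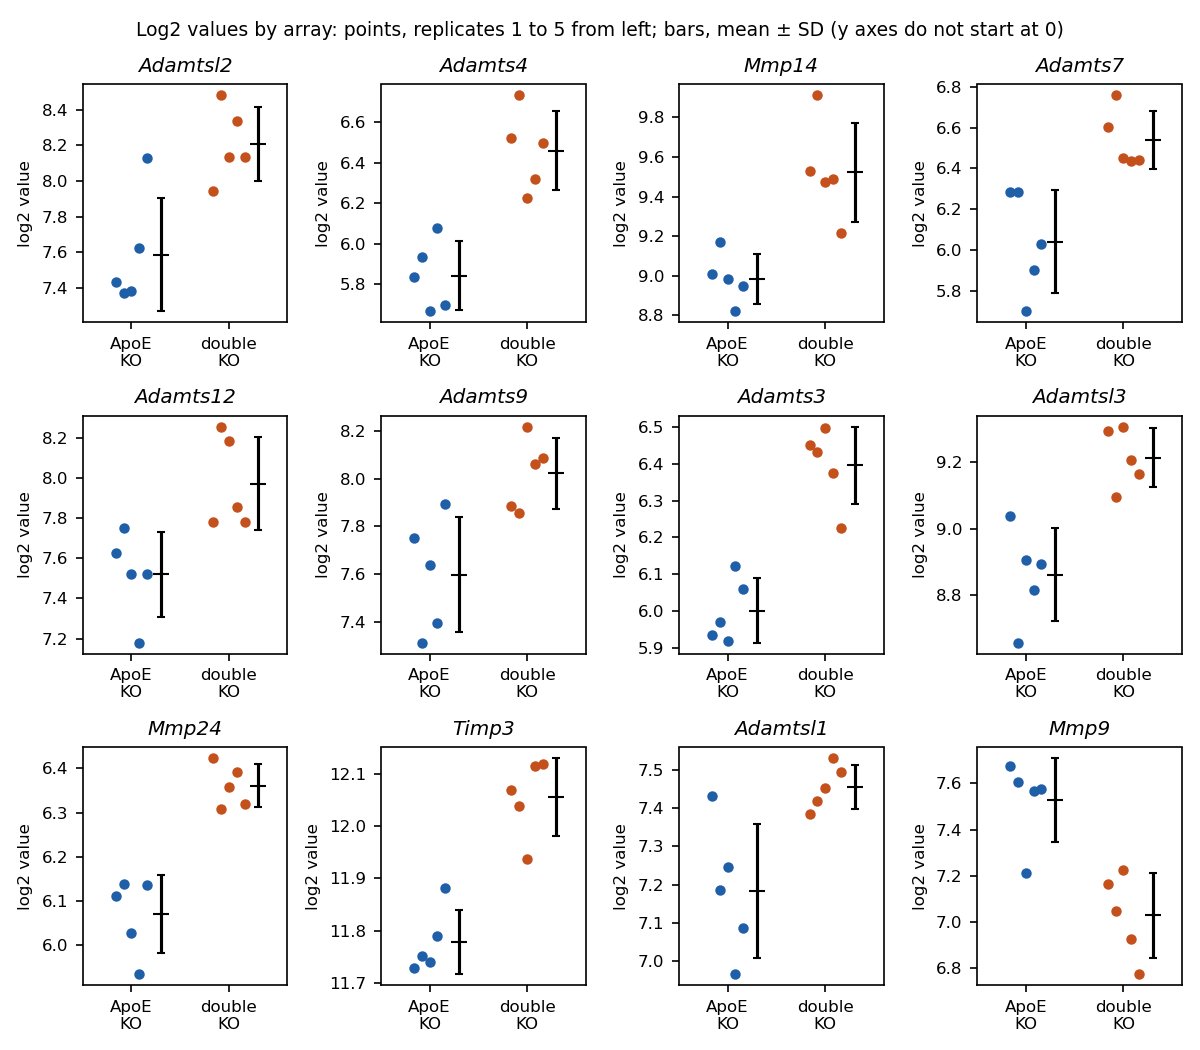
Log2 values by array (y axes, each with its own range that does not start at 0) of the 12 called members above the receptor gene level, with ApoE knockout arrays in blue, double knockout arrays in orange and black bars for mean ± SD (n = 5). The panels run from Adamtsl2, with the largest increase among them (0.62), to Mmp9, the one that was lower (-0.50).

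In the chromosome 9 run Mmp8, Mmp12 and, in the double knockout, Mmp13 spread widely between aortas (SDs of 0.81 and 0.54, 0.65 and 0.93, and 0.25 and 0.97 in the ApoE and double knockout). Of the 10 genes of the run, 5 lay above the receptor gene level and 0 of those passed. Over all genes above it 14.3% were higher and 10.9% lower. Mmp1a and Mmp7, both below the level, were higher, where 35.9% of all genes at or below it were. Mmp8, the neutrophil collagenase, was at 6.52, 8.04, 6.70, 8.30 and 7.84 in ApoE knockout replicates 1 to 5 and at 6.22, 7.27, 5.79, 6.50 and 6.58 in the double knockout. Replicates 2, 4 and 5 of the ApoE knockout stood above all other aortas. The change of -1.01 (SE 0.37, 95% interval -1.82 to -0.20) did not pass (adjusted p = 0.058). It was called in 5 alternatives, among them those without ApoE knockout replicate 1 or 3 (-1.25 and -1.20). These aortas had the lowest Mmp8 values of their group, so leaving either out had to deepen the fall, and these calls are descriptions.

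The ApoE knockout aortas had the same order in Mmp8 as in the mean of the neutrophil markers, which was 6.39, 7.53, 6.39, 7.68 and 7.12 in replicates 1 to 5. In the double knockout the order was another. Replicate 2 had its highest Mmp8 value, 7.27, with neutrophil markers at 6.09 in a range of 5.89 to 6.20. Mmp8 and Mmp13 were singled out after their values were seen.

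Mmp13, the main interstitial collagenase of rodents, was at 6.70, 6.70, 6.87, 6.69 and 6.21 in the ApoE knockout and at 6.03, 7.99, 5.38, 6.30 and 6.10 in the double knockout. Replicates 2 and 3 of the double knockout held the highest and the lowest value of all 10 aortas. Mmp12, the elastase of macrophages, had its extremes in the same aortas, at 7.71, 9.11, 8.97, 8.64 and 7.82 in the ApoE knockout and 8.55, 9.70, 7.09, 8.64 and 8.65 in the double knockout. The changes of Mmp13 (-0.27, 95% interval -1.10 to 0.56) and Mmp12 (0.08, -0.86 to 1.01) did not pass, and the intervals span differences of either sign.

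Macrophage markers had their extremes over the 10 aortas in the same double knockout replicates, at 9.73 in replicate 2 and 8.88 in replicate 3. Cardiac muscle markers were highest in replicate 2 as well (7.74, against 6.68 to 6.92 in the other double knockout aortas). Mmp19, a broadly expressed MMP, was at 8.92 in that replicate, at 8.11 to 8.18 in the other double knockout aortas and at 8.29 to 8.84 in the ApoE knockout (-0.21, adjusted p = 0.34). Without double knockout replicate 2, the 4 genes Mmp9, Mmp8, Mmp13 and Mmp19 were called lower. In that fit Mmp8 fell by 1.21 (adjusted p = 0.03), Mmp13 by 0.68 (adjusted p = 0.02) and Mmp19 by 0.37 (adjusted p = 0.028). This aorta was singled out after its values were seen. It was the highest of its group in Mmp8, Mmp13 and Mmp19, so leaving it out had to lower their changes, and these calls are descriptions. Over the 10 fits with 1 array left out, Mmp8 ranged from -1.25 to -0.80, Mmp13 from -0.68 to -0.03 and Mmp19 from -0.37 to -0.13. The part of macrophages in these values was not tested.

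**Figure D4:**
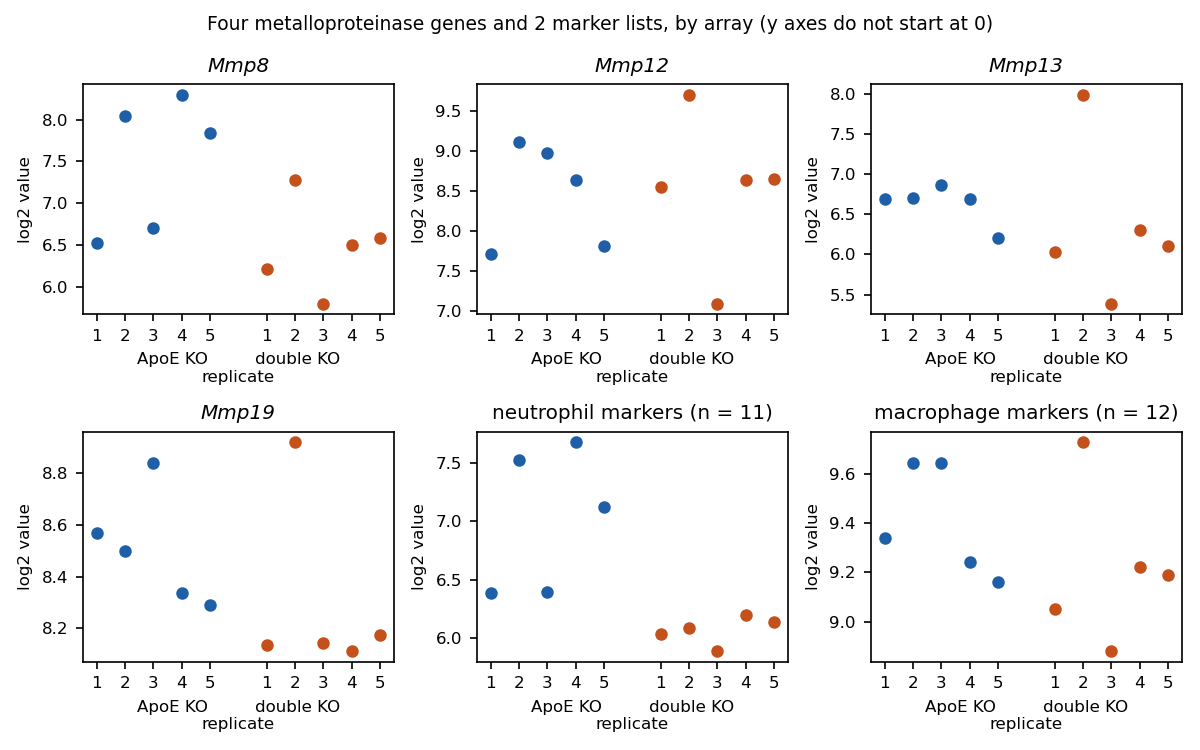
Log2 values of Mmp8, Mmp12, Mmp13 and Mmp19 and mean log2 levels of the neutrophil and macrophage markers (y axes, not from 0) in replicates 1 to 5 of each group (x axes), ApoE knockout in blue and double knockout in orange. Double knockout replicate 2 is the highest of its group in every panel except that of the neutrophil markers, where it lies at 6.09.

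Mmp3, the stromelysin that also activates other MMPs, overlapped widely, at 9.38 to 9.95 in the ApoE knockout and 9.43 to 10.14 in the double knockout. Its change was 0.20 (95% interval -0.13 to 0.53, adjusted p = 0.32). Mmp23, an MMP with an unusual membrane anchor at its start, changed by 0.14 (-0.04 to 0.32, adjusted p = 0.21). For Mmp11, known as stromelysin of stromal cells, a second probe set with a nearly equal mean gave 0.22 against -0.06, so its direction is uncertain.

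Of the MMP genes below the receptor gene level, 3 were called higher, where 35.9% of all genes at or below it were. Mmp10, Mmp20 and Mmp1b, also below it, were not called. Mmp21, known for its part in left-right patterning, was at 5.24 to 5.53 in the ApoE knockout against 5.72 to 6.04 in double knockout aortas (change 0.53, SE 0.084, adjusted p = 0.0014). Mmp7, the matrilysin of epithelia and macrophages, ran from 4.00 to 4.31 and from 4.58 to 5.08 (0.61, SE 0.098, adjusted p = 0.0015). A second Mmp7 probe set, with a lower mean, changed by 0.09 (SE 0.14) and did not pass. Mmp1a, a mouse relative of interstitial collagenase, rose by 0.32 from a mean of 2.94, and the call was lost after quantile normalization (0.09, adjusted p = 0.57).

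Among the ADAMTS proteases 8 of 18 rose (44.4%, against 22.8% of all genes), 0 fell and 10 did not pass. After quantile normalization 3 were higher, where 8.94% of all genes were. With arrays centred on the median of all probe sets only Adamts4 was higher. Of the proteoglycanases, the enzymes that cleave aggrecan and versican, 3 of 7 rose (42.9%). Adamts4, known as aggrecanase 1, was at 5.84, 5.93, 5.67, 6.08 and 5.70 in the ApoE knockout and at 6.52, 6.73, 6.23, 6.32 and 6.50 in the double knockout. The groups did not overlap, and 2 of the ApoE knockout values lay below the receptor gene level. The change was 0.62 (1.54-fold, SE 0.11, adjusted p = 0.0025), and it was called in each of the 18 alternative fits (0.41 to 0.68).

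Adamts9, which cleaves versican, had values of 7.75, 7.32, 7.64, 7.40 and 7.89 in the ApoE knockout and 7.89, 7.86, 8.22, 8.06 and 8.09 in the double knockout. Of the ApoE knockout aortas only replicate 5 overlapped with the double knockout. The change was 0.42 (SE 0.12, adjusted p = 0.021). Adamts20, known from skin pigmentation, was called at 0.32 from a mean of 4.94, below the receptor gene level, and the call was lost after quantile normalization (0.06, adjusted p = 0.65).

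The other proteoglycanases did not pass. Adamts1, which is induced by inflammation and cleaves versican, was at 9.91 to 10.77 and 10.15 to 10.66 (0.16, 95% interval -0.18 to 0.49). Adamts5, the main aggrecanase of mouse cartilage and the neighbour of Adamts1 on chromosome 16, was at 9.10 to 9.52 and 8.99 to 9.73 (0.07, -0.22 to 0.36). Adamts8 had 2 probe sets, both with positive changes (0.35 and 0.39). The dimmer probe set, with a mean of 5.84 close above the receptor gene level, passed when all probe sets were tested (adjusted p = 0.015). Of the proteoglycan substrates Acan rose by 0.55 (adjusted p = 0.0047) and Vcan by 0.35 (adjusted p = 0.019), the latter not called with arrays centred on the median of all probe sets (0.15, adjusted p = 0.29). Bcan (0.35, adjusted p = 0.099) and Ncan (0.06, adjusted p = 0.73), known from brain, did not pass.

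Both genes whose products cleave cartilage oligomeric matrix protein, a glycoprotein of cartilage and vascular smooth muscle, rose in the deposited values, and neither was called with arrays centred on the median of all probe sets. Adamts12 was at 7.63, 7.75, 7.52, 7.18 and 7.52 in the ApoE knockout and 7.78, 8.26, 8.19, 7.86 and 7.78 in the double knockout, without overlap. Its change was 0.45 (SE 0.13, adjusted p = 0.022), and it was not called without double knockout replicate 3 (0.40, adjusted p = 0.054). Adamts7, a locus known from human coronary disease genetics, was at 5.70 to 6.29 in the ApoE knockout and 6.44 to 6.76 in the double knockout (0.50, SE 0.12, adjusted p = 0.011). After quantile normalization its change was 0.33 (adjusted p = 0.067).

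Adamts3, which removes the amino-terminal propeptide of procollagen and takes part in VEGF-C activation, was at 5.92 to 6.12 in the ApoE knockout and 6.23 to 6.50 in the double knockout, without overlap. The change was 0.39 (SE 0.074, adjusted p = 0.0031), and 0.22 after quantile normalization (adjusted p = 0.064). Its relative Adamts14 changed by -0.04, with 0.18 from a second and dimmer probe set. Adamts6 and Adamts10, related enzymes tied to fibrillin microfibrils, changed by 0.33 (95% interval 0.06 to 0.59, adjusted p = 0.06) and 0.11 (-0.08 to 0.30). Adamts13, the protease that trims von Willebrand factor and is made mainly in the liver, lay below the receptor gene level and changed by 0.05.

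Adamts18 and Adamts19, below the receptor gene level, were called higher (0.43 and 0.24), and both calls were lost after quantile normalization, where Adamts19 turned to -0.03. Adamts19 was the called member nearest the threshold (adjusted p = 0.046), and Adamts17 the nearest member beyond it (0.27, adjusted p = 0.053). With 1 array left out at a time, Adamts18 was called in 3 of 10 fits and Adamts19 in 2 of 10.

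Of the ADAMTS-like genes 3 of 5 rose (60%, against 22.8% of all genes) and 0 fell. None of the 3 was called with arrays centred on the median of all probe sets, where Adamtsl4 was lower instead (-0.35, adjusted p = 0.0075). Adamtsl2, whose product binds fibrillin and a TGF-beta binding protein, had values of 7.43, 7.37, 7.38, 7.62 and 8.13 in the ApoE knockout and 7.95, 8.48, 8.14, 8.34 and 8.14 in the double knockout. ApoE knockout replicate 5 lay within the double knockout range and the other 4 below it. The change of 0.62 (1.54-fold, SE 0.15, adjusted p = 0.011) was the largest increase among the 49 members in the deposited values. It ranged from 0.42 to 0.76 over the alternative fits.

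Adamtsl3 was at 8.66 to 9.04 in the ApoE knockout and 9.10 to 9.31 in the double knockout, without overlap (0.35, SE 0.082, adjusted p = 0.0092). Adamtsl1, whose product is known as punctin, was at 6.97 to 7.43 and 7.38 to 7.53 (0.27, adjusted p = 0.035). Its call was lost after quantile normalization (adjusted p = 0.083) and held in 3 of 10 fits with 1 array left out. Adamtsl5 (0.15) and Adamtsl4 (-0.14), which is tied to the fibers that hold the lens, did not pass.

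Of the inhibitors Timp3 alone passed, and it was not called with arrays centred on the median of all probe sets (0.07, adjusted p = 0.44). TIMP-3 is bound to the matrix and differs from the other TIMPs in its strong inhibition of aggrecanases and of the sheddase ADAM17. Timp3 was at 11.73, 11.75, 11.74, 11.79 and 11.88 in the ApoE knockout and 12.07, 12.04, 11.94, 12.12 and 12.12 in the double knockout. The groups did not overlap, and the change was 0.28 (1.21-fold, SE 0.064, adjusted p = 0.0089).

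Timp1, the inhibitor induced by inflammatory cytokines, was at 8.82, 8.92, 9.27, 8.69 and 9.64 in the ApoE knockout and 9.26, 9.99, 9.14, 9.52 and 9.58 in the double knockout. Its change was 0.43 (SE 0.20, 95% interval -0.00 to 0.86, adjusted p = 0.12). Without ApoE knockout replicate 5, the highest of that group, it was called (0.57, adjusted p = 0.032), and in no other alternative. Leaving out the highest ApoE knockout value had to raise the change, so this call is a description. Timp4, known from heart and vessels, ran from 7.35 to 7.95 and from 7.65 to 8.30 (0.32, -0.01 to 0.65, adjusted p = 0.12). Timp2, which takes part in MMP-2 activation by MT1-MMP, varied little, at 12.16 to 12.28 and 12.10 to 12.23 (-0.04, -0.16 to 0.09, adjusted p = 0.67). It was called lower (-0.24, adjusted p = 0.015) with arrays centred on the median of all probe sets.

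Among the remaining 13 members, which did not pass, 9 changes were positive and 4 negative, between -0.13 and 0.35, with adjusted p-values from 0.057 to 0.99. They were Adamts8, Adamts13 to Adamts16, Mmp1b, Mmp10, Mmp11, Mmp16, Mmp20, Mmp25, Mmp27 and Mmp28, of which 9 lay above the receptor gene level. The SD within a group ran from 0.032 to 0.97 over all 49 members, widest for Mmp13 in the double knockout.

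Related proteolysis genes outside the families were read from lists of 68 measured genes, of which 12 rose and 4 fell, although with arrays centred on the median of all probe sets 2 were higher and 14 lower. The deposited scale thus gave 17.6% higher and 5.88% lower, below the shares of all genes (22.8% and 7.53%), and the counts per list that follow are descriptions. In a list of astacin and related metalloproteinases, which also holds genes of other classes such as Htra1, Htra3 and Pcolce2, 4 of 10 rose. Bmp1, the procollagen C-proteinase, rose by 0.24 (SE 0.073, adjusted p = 0.027), and Htra3, a secreted serine protease, by 0.35 (SE 0.082, adjusted p = 0.0096). Neither was called with arrays centred on the median of all probe sets (0.04, adjusted p = 0.75, and 0.14, adjusted p = 0.22), and Bmp1 was also not called without ApoE knockout replicate 1 or 2 or double knockout replicate 2 or 3 (adjusted p = 0.055, 0.064, 0.053 and 0.054). Tll2 and Mep1a, with means of 5.84 and 4.99, were called at 0.40 and 0.35 and not after quantile normalization. Htra1 (0.17) and Pcolce2 (-0.09) did not pass.

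Of the membrane ADAM sheddases 0 of 8 rose and 2 fell (25%), where 10.9% of all genes above the receptor gene level were lower. Adam15 fell by 0.44 (SE 0.125, adjusted p = 0.021), with no call for the mean of its probe sets (-0.20, adjusted p = 0.13). Adam10, an enzyme of Notch processing, fell by 0.31 (adjusted p = 0.023). Adam10 was not called without ApoE knockout replicate 2 or 4 or double knockout replicate 3 (adjusted p = 0.055, 0.051 and 0.053). Adam17, the TNF sheddase inhibited by TIMP-3, changed by -0.01 and Adam9 by 0.15, and neither passed. Endothelial markers were lower in part, 3 of 9 (33.3%, against 7.53% of all genes), though 1 of 9 after quantile normalization. Their mean levels were 9.94 to 10.19 in the ApoE knockout and 9.70 to 10.05 in the double knockout. The part of endothelial cells in the changes of the sheddases was not tested.

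In the plasminogen system, which activates several MMP precursors, Serpinb2, an inhibitor of urokinase, passed among 7 genes. It fell by 0.83 (SE 0.17, adjusted p = 0.0052), from a mean of 5.32 to 4.48, both below the receptor gene level. Plat, the tissue plasminogen activator gene, changed by -0.07, and Plgrkt, a plasminogen receptor gene, by -0.11. Of 10 cathepsins and cystatins the dim Csta1 alone passed (0.74, adjusted p = 0.019), which quantile normalization removed (adjusted p = 0.12), while Ctsb (-0.10) and Cst3 (0.02) did not pass.

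Of the 14 regulators and clearance receptors 3 rose (21.4%) and 1 fell (7.14%), near the shares of all genes (22.8% and 7.53%). After quantile normalization 0 were called either way. Those higher were Spock1 (0.53), Pzp (0.43) and A2m (0.42), a broad protease inhibitor, with ApoE knockout means of 5.82, 4.77 and 5.00, and Pcsk6, a proprotein convertase, was lower (-0.31). Bsg, the MMP inducer known as EMMPRIN, changed by -0.15 (adjusted p = 0.072) and the clearance receptor gene Lrp1 by 0.17 (adjusted p = 0.18). Among 19 textbook substrates 4 rose (21.1%, near the 22.8% of all genes) and 0 fell. Besides Acan and Vcan these were Lama5, a basement membrane laminin (0.48, adjusted p = 0.0069), and Col1a1 (0.41, adjusted p = 0.025), while Bgn (0.03) and Dcn (0.01) did not pass. Lama5 and Col1a1 were not called with arrays centred on the median of all probe sets (adjusted p = 0.075 and 0.23), nor was Col1a1 without ApoE knockout replicate 1 or 3 or double knockout replicate 3 (adjusted p = 0.052, 0.057 and 0.059).

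Marker lists of cells that can express these genes were counted beside the members, and their part in the changes of the members was not tested. The mean level of 9 smooth muscle markers was 10.89 to 11.51 in ApoE knockout and 11.46 to 11.57 in double knockout aortas, and 4 of 9 rose, for instance Des by 0.54. Chondrocyte markers, a list that includes Acan, had 5 of 8 higher, with levels of 6.02 to 6.23 and 6.33 to 6.52, though 1 of 8 after quantile normalization. Fibroblast markers lay at 11.38 to 11.48 and 11.36 to 11.67, with 2 of 8 higher, Lum and Col1a1, a share (25%) near that of all genes (22.8%). Cardiac muscle markers had 2 of 6 higher (6.29 to 6.93 and 6.68 to 7.74) and mesothelial markers 1 of 6 (5.92 to 6.40 and 6.10 to 7.14), the latter 16.7%, below the share of all genes, and after quantile normalization 1 cardiac marker was higher and 1 mesothelial marker lower.

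Markers of lymphocytes and mast cells were lower in part, where 7.53% of all genes were lower. Mast cell markers had 5 of 8 lower and 1 higher (6.47 to 7.24 against 5.88 to 6.28), T cell markers 3 of 5 lower (6.47 to 9.10 against 5.79 to 7.12) and B cell markers 3 of 5 lower (6.83 to 7.45 against 5.86 to 6.17). White and brown adipocyte markers had 0 of 6 and 0 of 5 passing in either direction. Brown adipocyte levels were 9.17 to 12.07 in ApoE knockout and 9.55 to 10.97 in double knockout aortas.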

How the data were processed

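Total RNA from 10 mouse aortas, 5 per genotype, was, per the labels, hybridised to Mouse Gene 2.0 ST arrays from Affymetrix. The deposited log2 values of 41345 probe sets, as the authors gave them, were used. The log base was inferred from their range, and background correction and normalization were not given in the sources used here. Submitters' processing notes name limma. Of the probe sets, 23521 had 1 gene symbol, 1814 several and 16010 were unnamed here. The probe set with the highest mean over the arrays stood for each of 22180 genes, with no filter on dim genes. Groups were compared with limma 3.58.1 (lmFit and eBayes, two-sided, R 4.3.3) and Benjamini-Hochberg adjustment over all genes, threshold 0.05, and this is the adjusted p given throughout. The fit was tested on simulated data. The labels call arrays of a group biological replicates and do not name animals, so p-values measure the spread between these arrays.

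Named were every Timp, every member past the threshold, the 12 others with the highest mean and the members next to the threshold. In each related list, up to 4 called genes with the smallest p and 2 others with the highest mean were named, and any other naming followed the values. Members and lists were chosen with earlier results of these data known. Mmp15 and Adamts2 were not analysed here, and some genes of the related and marker lists are not reported here. Alternatives were quantile normalization, 2 centrings (all probe sets, or genes above the receptor gene level), the lowest 40% of genes left out, the mean of a gene's probe sets, a trended robust prior, weights per array, a block for the replicate number, each array left out and a threshold of 0.01. Counts over members above the receptor gene level, and the fit without double knockout replicate 2 as a check of that aorta, were chosen after seeing the data. Figures were drawn with matplotlib 3.10.9.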

Additional observations from a re-analysis of the deposited data

Results flagged for a closer look

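In 11 of the 98 groups of 5 log2 values of the members, the highest or lowest aorta stood apart from the others by Dixon's criterion, and chance gives about 1 in 20 groups. ApoE knockout replicate 2 was the lowest of its group in Adamts14 (6.406), Adamts20 (4.731) and Mmp7 (4.002) and the highest in Timp2 (12.276). ApoE knockout replicate 3 was the lowest in Mmp9 (7.211) and Mmp20 (4.319), and replicate 5 in Mmp13 (6.21). Double knockout replicate 2 was the highest of its group in Adamts8 (7.812), Adamts16 (6.325) and Mmp19 (8.921), and double knockout replicate 5 was the lowest in Mmp25 (5.494). For Mmp9 the single low aorta is the point at which the groups met.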

How the results depend on the processing

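After quantile normalization 4461 genes were called (1982 higher), with 11 members (10 higher) and 7 related genes higher. Timp2 was then at 0.0, Adamts19 at -0.031 and Adam17 at 0.001. With arrays centred on the median of all probe sets 1669 genes were higher and 5641 lower, with 9 members (3 and 6), 7 members above the receptor gene level (1 and 6) and related genes 2 and 14. This centring lowers every change by the same amount. Among the members named by rule it turned the sign of Adamts1 (-0.047), Mmp23 (-0.066), Mmp3 (-0.001), Adamts5 (-0.135), Adamts10 (-0.095), Adamtsl5 (-0.057) and Mmp12 (-0.127). It also turns small positive changes of other members, such as Adamts13 and Mmp16 (0.045 and 0.058 in the deposited values). Among the named related genes it turned Adam9 (-0.051), Cst3 (-0.181), Htra1 (-0.033), Lrp1 (-0.032), Bgn (-0.172) and Dcn (-0.196). Centring on genes above the receptor gene level gave Timp2 0.002 and Adam17 0.029, and array weights gave Mmp12 -0.033 and Adam17 0.034. Without the lowest 40% of genes 3419 were called (1935 higher) and 11 members were higher, since fewer genes were tested. At a threshold of 0.01, 2970 genes were called (2336 higher, 634 lower), 9 members (8 higher), 7 above the receptor gene level (6 higher) and 7 related genes (6 higher, 1 lower).

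With 1 array left out, 1 to 4 members were lower (4 without double knockout replicate 2, 2 without ApoE knockout replicate 1 or 3), 1 to 4 of those above the receptor gene level, and 2 to 7 related genes (7 without double knockout replicate 2, 2 without ApoE knockout replicate 4). Log2 changes that turned sign then ranged over -0.216 to 0.437 (Mmp12), -0.027 to 0.160 (Adamts5), -0.099 to 0.063 (Adam17), -0.109 to 0.017 (Plat) and -0.014 to 0.069 (Cst3). With the replicate number as a block 6594 genes were called, and of the members 15 were higher and 2 lower, both above the receptor gene level (Mmp8 and Mmp9). The block added Mmp8 (adjusted p = 0.01) and Mmp10 and left out Adamts18, Adamts19 and Adamtsl1 (adjusted p = 0.077, 0.067 and 0.071), and among related genes Bmp1, Mep1a and Pcsk6 (0.057, 0.068 and 0.05). Deviations of same-numbered aortas correlated at 0.26, 0.197, -0.13, 0.06 and 0.144 for replicates 1 to 5, and 3 of the 5 numbers correlated best with their own, a hint from the data. Replicates 3 and 4 stayed under 0.1, so the numbers were not taken to pair the aortas. Apart from the centring and the smaller number of genes tested, the cause of these shifts was not tested. Dim signal limits the members at or below the receptor gene level.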
